A study of Mus musculus with 2 samples.

Results

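A set of 10 genes that are widely used to mark radial glia and astrocytes were followed in total RNA of the mouse embryonic neural tube. They are Fabp7, Slc1a3, Slc1a2, Glul, Aldoc, Aldh1l1, Gja1, Aqp4, Sparcl1 and Hopx, chosen by name as glial markers, and each was matched to its row by Ensembl identifier without version. All 10 were found among the 43346 gene rows of both libraries. The study holds 1 group, untreated neural tube of the B6NCrl mouse strain at embryonic day 14.5, with 2 libraries. Replicate 2 is labelled as pup 1 of the second pregnant female, and replicate 1 as pup 1 of the first. Each library started from 10 ng of RNA with spike-in RNA added, and no genotype, agent or cell sort is named. The tissue was taken whole, so each value is an average over every cell type present, and fewer cells of a type cannot be told apart from less RNA per cell.

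Radial glia are the stem cells of the embryonic nervous system. Their cell bodies line the ventricle and their long fibres reach the outer surface, where they guide migrating neurons. They make neurons first and later turn to making astrocytes, the support cells that clear glutamate, buffer potassium and water, and couple to each other through gap junctions. Many genes are shared between the progenitor and the astrocyte, and whole-tissue values do not tell which of them the RNA of a gene came from.

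With a single group there is no contrast between conditions, and no p-value is given. Levels are TPM (transcript abundance scaled to a fixed sum per library, a value per transcript length), as mean ± SD of the 2 libraries, and the libraries are compared by the ratio of replicate 2 over replicate 1. That ratio used scaled expected counts, with an exact 95% interval that covers counting error only. A gene is called apart where the ratio passes 1.5-fold. Expected counts on gene rows totalled 25428747 in replicate 2 and 32255363 in replicate 1, and member genes had between 212 and 25343. Neuron markers were present throughout: all 15 listed genes, such as those for tubulin and neurofilament proteins, lay between 66.1 and 1308 TPM in replicate 2 and between 64.2 and 1315 TPM in replicate 1. The libraries themselves stood apart in several ways. Markers of some tissues around the neural tube were higher in replicate 2. Sensory ganglion neuron genes summed to 184 TPM in replicate 2 and 33.7 TPM in replicate 1. Their log2 ratios ran from −0.58 to 7.97, with 7 of 8 past 2-fold upward, beside 5.58% of all genes that averaged 10 or more counts. Meninges and fibroblast genes were also higher, as given beside Gja1, while skeletal muscle genes were lower, as given beside Aqp4. The ganglion genes ranged from 4.19 to 84.0 TPM in replicate 2 and from 0.02 to 22.4 TPM in replicate 1, with none at 0. The sex is labelled as pooled, but Xist, the RNA of the inactive X chromosome, had 0.05 TPM in replicate 2 and 70.8 TPM in replicate 1, and the Y-linked gene Ddx3y had 30.6 TPM in replicate 2 and 0.02 TPM in replicate 1. Scaling by the spike-ins in place of the genes adds 0.55 to every log2 ratio and moves the median of all genes to 0.54, so ratios here are relative to the median gene. Counts of genes past 1.5-fold with spike-in scaling include this shift of all genes. The share of all genes past 1.5-fold with that scaling was not computed, so such counts are not results about a list.

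The 10 genes spanned a wide range of levels and were all detected. All 10 reached 1 TPM in both libraries, as did 60.8% of 21474 protein-coding genes. Their median level was 121 TPM in replicate 2 and 103 TPM in replicate 1 (111.8 ± 13.2 TPM), against medians over protein-coding genes of 5.67 TPM in replicate 2 and 4.88 TPM in replicate 1. The median of the 10 lies midway in a wide gap. The gap ran from Gja1 (88.9 TPM) to Glul (153 TPM) in replicate 2. In replicate 1 it ran from Aldh1l1 (43.0 TPM) to Slc1a3 (162 TPM). The 10 genes summed to 2789.2 TPM in replicate 2 and 2823.5 TPM in replicate 1. Fabp7 alone made up 65.0% of their summed TPM in replicate 2 and 62.8% in replicate 1.

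**Figure D1:**
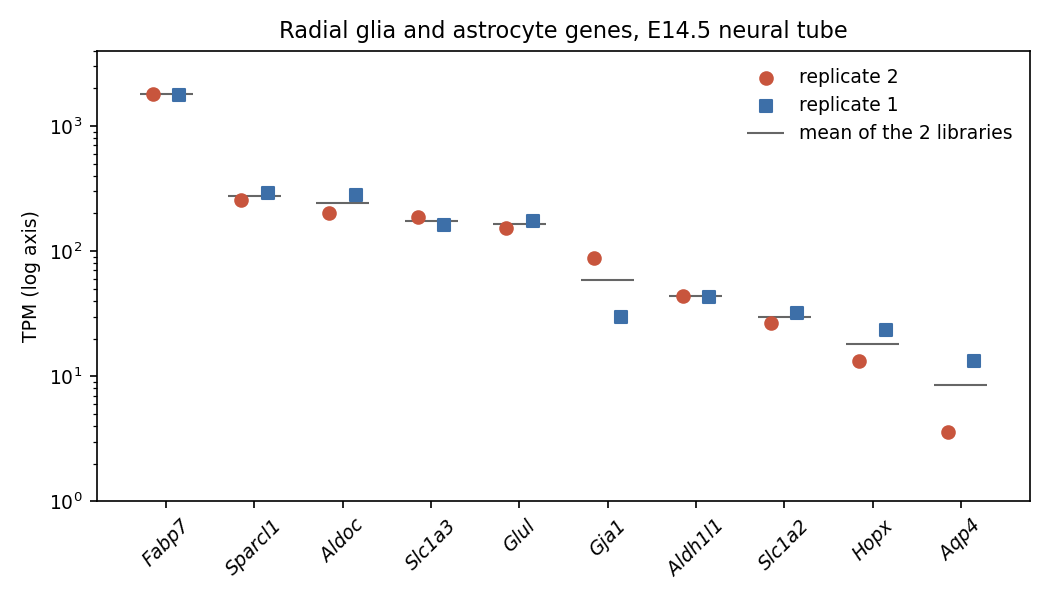
TPM of each of the 10 genes (log axis), with circles for replicate 2, squares for replicate 1 and bars for the mean of the pair. Fabp7 sits at 1812 TPM in replicate 2 and 1772 TPM in replicate 1, while Gja1, Hopx and Aqp4 show the widest gaps between the symbols.

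Fabp7 encodes a brain fatty acid binding protein that carries lipids inside radial glia, and it was the highest of the 10. It lies on chromosome 10, 57784881 to 57788450 (GRCm38, plus strand). It had 1812 TPM in replicate 2 and 1772 TPM in replicate 1 (1792 ± 28.9 TPM), on 19155 expected counts in replicate 2 and 25343 in replicate 1. These levels ranked 29 in replicate 2 and 31 in replicate 1 among protein-coding genes. The libraries differed by less than 1.5-fold, with a log2 ratio of −0.06, which turns to 0.03 with the deposited TPM and to 0.49 with spike-in scaling. Of its 2 annotated transcripts, Fabp7-201 carried 98.7% of the gene's TPM in replicate 2 and 98.8% in replicate 1. It was the highest of the fatty acid binding genes in both libraries. Fabp5, the epidermal form that is also found in neural cells, had 651 TPM in replicate 2 and 738 TPM in replicate 1. Fabp3, the heart form that is also found in neurons, had 157 TPM in replicate 2 and 219 TPM in replicate 1. Fabp7 was therefore 2.78 times Fabp5 in replicate 2 and 2.40 times in replicate 1. The other 5 of the 8 listed family members were under 1 TPM in both libraries.

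The sequence just upstream of the annotated Fabp7 transcript is shown because this start carried nearly all TPM of the highest of the 10 genes. It is the exon-free part of the RefSeq promoter window (GRCm38.p6), chr10:57784673-57784880, plus strand, 208 bases, and capitals mark matched motifs. A total of 5 motifs was searched on both strands: the TATA box as TATAAA, the CCAAT box as CCAAT, the core bound by the Notch partner RBPJ as TGGGAA, a STAT core that reads the same on both strands as TTCNNNGAA, and the NFI palindrome, whose half-site can overlap CCAAT.
Fabp7: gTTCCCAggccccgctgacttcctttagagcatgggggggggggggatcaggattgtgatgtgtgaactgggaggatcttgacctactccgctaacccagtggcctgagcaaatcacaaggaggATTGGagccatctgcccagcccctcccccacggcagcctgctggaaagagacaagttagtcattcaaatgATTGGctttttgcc
CCAAT matched on the strand opposite to the gene, from positions −126 and −56 relative to the RefSeq start, and TGGGAA matched on the same strand from −249. Exon bases were not searched, which here leaves out the 42 bases just before the RefSeq start. A motif that lies in them, or that runs across the edge of the stretch, would be missed. The stretch ends in TTGGC, 5 bases and GCC, which begins like the NFI palindrome (TTGGC, 5 bases, GCCAA). The rest falls past the edge, so the search could not decide this motif for Fabp7. The same stretch held CCAAT in 29.6% of all 32851 promoters and TGGGAA in 18.5%. A match is a description of letters, not of binding.

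Slc1a3 and Slc1a2 encode the glial glutamate transporters GLAST and GLT-1, which remove glutamate from the space around neurons. GLAST is known to appear earlier, in radial glia, and GLT-1 to become the main astrocyte transporter after birth. Slc1a3 (chromosome 15, 8634124 to 8710764, minus strand) had 186 TPM in replicate 2 and 162 TPM in replicate 1 (174 ± 17.1 TPM). Slc1a2 (chromosome 2, 102658659 to 102790784, plus strand) had 26.8 TPM in replicate 2 and 32.2 TPM in replicate 1 (29.5 ± 3.85 TPM). Slc1a3 therefore exceeded Slc1a2 in both libraries, by 6.96 times in replicate 2 and 5.03 times in replicate 1, and their ranges were far apart. Neither passed 1.5-fold between libraries by TMM scaling. The log2 ratio of Slc1a3 was 0.07, and it reached 0.62, past 1.5-fold, with spike-in scaling. The log2 ratio of Slc1a2 was −0.24, and it turned to 0.31 with spike-in scaling. Most reads of each gene fell on a single transcript. Slc1a3-201 carried 89.2% of the gene's TPM in replicate 2 and 92.0% in replicate 1, and the 11595-base Slc1a2-202 carried 92.7% in replicate 2 and 84.5% in replicate 1. TPM is a value per length, and on this long transcript Slc1a2 had 4298 expected counts in replicate 2 and 6435 in replicate 1.

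A further 4 transporters of the Slc1 family reached 1 TPM in both libraries. The neuronal glutamate transporter gene Slc1a1 had 34.1 TPM in replicate 2 and 31.1 TPM in replicate 1, a range that overlaps that of Slc1a2. The neutral amino acid transporter genes were Slc1a4, with 52.0 TPM in replicate 2 and 45.1 TPM in replicate 1, and Slc1a5, with 3.67 TPM in replicate 2 and 3.86 TPM in replicate 1. Slc1a6, the glutamate transporter known from Purkinje cells, had 7.62 TPM in replicate 2 and 8.33 TPM in replicate 1. None of the 6 measured family members passed 1.5-fold by TMM scaling, and 3 did with spike-in scaling (Slc1a1, Slc1a3 and Slc1a4, all higher in replicate 2). With that scaling the median log2 ratio of all genes was 0.54. Slc1a3 was the highest of the family in both libraries, and Slc1a7 stayed under 1 TPM.

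Glul encodes glutamine synthetase, which turns the glutamate taken up by glia into glutamine. It lies on chromosome 1, 153899944 to 153909723, plus strand. Its deposited level was 153 TPM in replicate 2 and 174 TPM in replicate 1 (164 ± 14.7 TPM), with a log2 ratio of −0.23 that turned to 0.32 with spike-in scaling. How that level arises differs from the other genes. The 2792-base transcript Glul-201 carried 57.7% of the expected counts in replicate 2 and 58.0% in replicate 1, but only 18.8% of the TPM in replicate 2 and 18.3% in replicate 1. Short annotated transcripts took most of the TPM: Glul-202, of 681 bases, held 47.0% in replicate 2 and 41.4% in replicate 1, and Glul-203, of 379 bases, held 32.9% in replicate 2 and 38.5% in replicate 1. With all its reads placed on Glul-201, the level becomes 50.01 TPM in replicate 2 and 54.90 TPM in replicate 1, so the deposited mean is 3.12 times higher. This alternative was chosen after seeing the data. For the other 9 genes the same step changed the mean by at most 1.12 times.

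Other enzymes of glutamate handling were also expressed. Glud1, glutamate dehydrogenase, had 122.0 TPM in replicate 2 and 125 TPM in replicate 1. The aspartate aminotransferase genes had 67.0 TPM in replicate 2 and 78.9 TPM in replicate 1 (Got1), and 71.1 TPM in replicate 2 and 79.7 TPM in replicate 1 (Got2). Among the 6 listed enzymes only Gls2, at 1.68 TPM in replicate 2 and 2.24 TPM in replicate 1, passed 1.5-fold, with 34 counts in replicate 2 and 77 in replicate 1. Its log2 ratio of −0.83 became −0.29 with spike-in scaling, which ends the call. By TMM scaling, 8.53% of all genes that averaged 10 or more counts were lower by the same fold.

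**Figure D2:**
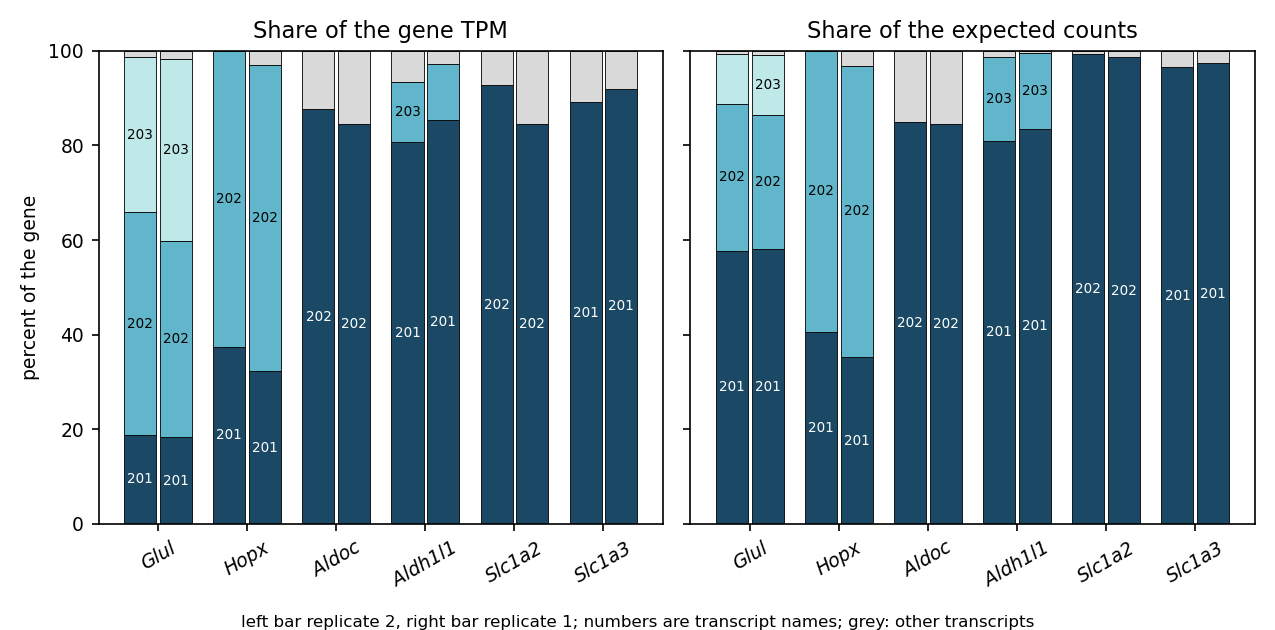
Share of each gene's TPM (left panel) and of its expected counts (right panel) by annotated transcript, in percent, for the 6 genes with more than 2 annotated transcripts. The bar of replicate 2 stands left of that of replicate 1. Transcripts with 10% or more of the gene's TPM in either library are drawn singly, and grey holds all others. Glul-201 fills 57.7% of the counts in replicate 2 and 58.0% in replicate 1, but 18.8% of the TPM in replicate 2 and 18.3% in replicate 1, and Hopx is split between 2 transcripts.

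Aldoc and Aldh1l1 encode enzymes that mark astrocytes. Aldoc is the brain form of the glycolytic enzyme aldolase, and Aldh1l1 is a folate enzyme used to label astrocytes as a class. Aldoc (chromosome 11, 78322968 to 78327781, plus strand) had 203 TPM in replicate 2 and 280 TPM in replicate 1 (242 ± 54.7 TPM). It was 1.43-fold higher in replicate 1, just inside the 1.5-fold limit, and its log2 ratio of −0.52 became 0.03 with spike-in scaling. Aldh1l1 (chromosome 6, 90486427 to 90600203, plus strand) had 44.0 TPM in replicate 2 and 43.0 TPM in replicate 1 (43.5 ± 0.771 TPM). Its log2 ratio was −0.10, with 0.04 by deposited TPM and 0.45 with spike-in scaling. Both genes used mainly a single transcript. Aldoc-202 held 87.7% of the TPM in replicate 2 and 84.5% in replicate 1, and Aldh1l1-201 held 80.7% in replicate 2 and 85.4% in replicate 1.

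Each enzyme has a relative in the data that is not tied to glia. Aldoa, the widespread aldolase, had 513 TPM in replicate 2 and 535 TPM in replicate 1, so Aldoc was 0.395 times Aldoa in replicate 2 and 0.524 times in replicate 1. Aldh1l2, the mitochondrial relative of Aldh1l1, had 18.6 TPM in replicate 2 and 16.7 TPM in replicate 1. Aldh1l1 was 2.37 times that level in replicate 2 and 2.57 times in replicate 1.

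Gja1 was the 1 member that was more than 1.5-fold higher in replicate 2, as were 10.7% of 17623 genes that averaged 10 or more counts. Gja1 encodes connexin 43, the main gap junction protein of radial glia and astrocytes, and it is also known from meningeal fibroblasts and vessels. It lies on chromosome 10, 56377330 to 56402513, plus strand. It had 88.9 TPM in replicate 2 and 29.5 TPM in replicate 1 (59.2 ± 42.0 TPM), on 3999 expected counts in replicate 2 and 1795 in replicate 1. The ratio was 2.82 (95% counting interval 2.67 to 2.98), which was 4.12 with spike-in scaling and 3.02 by deposited TPM. It was also past 2-fold, as were 5.58% of the genes. Over genes that averaged 100 or more counts, 6.86% were 1.5-fold higher. A share of 1 in 10 members is close to the 1.5-fold background, so the count itself is not a result about these genes.

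The upstream window of Gja1 is shown beside that of Fabp7 because these genes of the same chromosome behaved differently between the libraries. It is chr10:56377050-56377299, plus strand, 250 bases (RefSeq, GRCm38.p6).
Gja1: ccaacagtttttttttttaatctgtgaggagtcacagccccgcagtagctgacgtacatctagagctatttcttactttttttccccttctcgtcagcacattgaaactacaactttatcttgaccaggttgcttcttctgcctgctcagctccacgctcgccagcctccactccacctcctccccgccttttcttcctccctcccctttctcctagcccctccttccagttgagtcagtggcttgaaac
None of the 5 motifs matched in this window, so it carries no capitals. Over all promoters the share of 250-base windows with a match was 33.8% for CCAAT, 21.6% for TGGGAA, 12.4% for TATAAA, 7.02% for TTCNNNGAA and 0.0365% for the NFI palindrome.

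Of 19 listed connexins, 10 had a mean count of at least 10. Of these, 3 (Gja1, Gjb2 and Gjb6) were at least 1.5-fold higher in replicate 2, beside 10.7% of all genes tested. Gjb2, connexin 26, had 21.9 TPM in replicate 2 and 1.05 TPM in replicate 1, and Gjb6, the astrocyte connexin 30, had 20.4 TPM in replicate 2 and 0.87 TPM in replicate 1. Both are also known from the meninges. Gjc1, connexin 45, did not pass 1.5-fold, with 27.9 TPM in replicate 2 and 27.5 TPM in replicate 1, and neither did the endothelial Gja4, with 17.1 TPM in replicate 2 and 15.6 TPM in replicate 1. The neuronal Gjd2 had 4.69 TPM in replicate 2 and 5.70 TPM in replicate 1, and Gjb1, connexin 32 of myelinating glia, had 1.04 TPM in replicate 2 and 1.01 TPM in replicate 1. Gjd3 was the 1 connexin past 1.5-fold in the other direction, as were 8.53% of all genes tested. It had 8 counts in replicate 2 and 26 in replicate 1. Gja1 was the highest connexin in both libraries, by 3.18 times Gjc1 in replicate 2 and 1.07 times in replicate 1.

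Several lists of markers from vessels and from tissue around the neural tube were higher in replicate 2, as Gja1 was. Skeletal muscle genes went the other way, with a median log2 ratio of −1.05. All 12 listed genes of meninges and fibroblasts were more than 2-fold higher in replicate 2, beside 5.58% of all genes tested. Their log2 ratios ran from 1.19 to 5.60, and they summed to 1337 TPM in replicate 2 and 133 TPM in replicate 1. They ranged from 1.76 to 419 TPM in replicate 2 and from 0.13 to 73.4 TPM in replicate 1, and none was at 0. Their median was 64.8 TPM in replicate 2 and 5.145 TPM in replicate 1, where a single gene gave 73.4 TPM of the sum. All 8 measured endothelial genes passed 1.5-fold upward in replicate 2, beside 10.7% of all genes tested. The full list summed to 210 TPM in replicate 2 and 90.8 TPM in replicate 1, and Slco1a4 was at 0 in replicate 1. Schwann and satellite glia genes summed to 72.6 TPM in replicate 2 and 17.1 TPM in replicate 1, with all 9 higher in replicate 2, 8 of them past 1.5-fold, and Cdh19 at 0 in replicate 1. Pericyte genes summed to 63.0 TPM in replicate 2 and 42.5 TPM in replicate 1. Their median log2 ratio was 0.30, with 2 of 7 past 1.5-fold, both higher in replicate 2. The part of these tissues in the Gja1 difference was not tested.

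Aqp4 and Hopx were the 2 members more than 1.5-fold lower in replicate 2, as were 8.53% of all genes tested. The members are counted more deeply than many genes, and over genes that averaged 100 or more counts 3.23% were 1.5-fold lower and 6.86% were higher. With only 2 members lower, this count is not read as a result about the set. Aqp4 encodes the water channel of astrocyte endfeet and is also known from fast skeletal muscle fibres. It lies on chromosome 18, 15389496 to 15410982, minus strand. It had 3.61 TPM in replicate 2 and 13.3 TPM in replicate 1 (8.48 ± 6.88 TPM), on 269 expected counts in replicate 2 and 1347 in replicate 1. Replicate 2 was lower by 3.95-fold (95% counting interval 3.47 to 4.52), a log2 ratio of −1.98 that was −1.43 with spike-in scaling. It was the 1 member more than 2-fold lower, as were 3.11% of the genes. Gja1 and Aqp4 are named together as genes of astrocyte endfeet, yet they lay on opposite sides: Gja1 was 24.6 times Aqp4 in replicate 2 and 2.21 times in replicate 1.

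Aqp4 was among few aquaporins in this tissue. Of 12 listed genes, 8 were under 1 TPM in both libraries. Aqp11, an intracellular channel, had 17.6 TPM in replicate 2 and 17.3 TPM in replicate 1, above Aqp4 in both. Aqp5, a channel of glands, had 1.56 TPM in replicate 2 and 1.02 TPM in replicate 1. Skeletal muscle markers were lower in replicate 2 as well: 8 of 10 passed 1.5-fold (4 with spike-in scaling). By TMM scaling, 8.53% of all genes tested were lower by that fold. The muscle list summed to 24.5 TPM in replicate 2 and 49.2 TPM in replicate 1. Single muscle markers ran from 0.38 to 7.36 TPM in replicate 2 and from 0.64 to 18.02 TPM in replicate 1, with none at 0. Their part in the Aqp4 difference was not tested.

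Hopx encodes a small homeodomain protein that does not bind DNA itself and is known from quiescent neural stem cells and outer radial glia. It lies on chromosome 5, 77086988 to 77115121, minus strand. It had 13.3 TPM in replicate 2 and 23.2 TPM in replicate 1 (18.3 ± 7.05 TPM), on 212 expected counts in replicate 2 and 501 in replicate 1. Replicate 2 was lower by 1.86-fold (95% counting interval 1.59 to 2.20). The log2 ratio of −0.90 became −0.35 with spike-in scaling, which ends the call. Hopx was divided between 2 start sites far apart. Hopx-202 held 62.6% of the TPM in replicate 2 and 64.7% in replicate 1, and Hopx-201 held 37.4% in replicate 2 and 32.3% in replicate 1. Both transcripts were lower in replicate 2: Hopx-202 had 8.31 TPM in replicate 2 and 15.04 TPM in replicate 1, and Hopx-201 had 4.96 TPM in replicate 2 and 7.50 TPM in replicate 1.

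The upstream windows of both Hopx starts are shown because each carried a sizeable share of the gene. That of Hopx-202 is chr5:77095278-77095517, 240 bases, and that of Hopx-201 is chr5:77115124-77115373, 250 bases, both on the minus strand (RefSeq, GRCm38.p6) and written in the direction of transcription.
Hopx-202: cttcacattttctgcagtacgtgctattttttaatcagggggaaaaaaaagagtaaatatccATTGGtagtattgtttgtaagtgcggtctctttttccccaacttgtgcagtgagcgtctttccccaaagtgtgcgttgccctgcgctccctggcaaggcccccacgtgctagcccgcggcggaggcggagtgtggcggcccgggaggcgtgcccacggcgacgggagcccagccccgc
Hopx-201: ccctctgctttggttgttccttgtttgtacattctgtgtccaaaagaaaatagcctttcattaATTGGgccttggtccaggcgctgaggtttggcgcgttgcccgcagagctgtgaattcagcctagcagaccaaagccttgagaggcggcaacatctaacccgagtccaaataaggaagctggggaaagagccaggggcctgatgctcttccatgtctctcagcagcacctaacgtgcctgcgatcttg
Each window held a single CCAAT match on the strand opposite to the gene, from position −188 for Hopx-202 and −187 for Hopx-201, and none of the other motifs. The same stretch held CCAAT in 33% of all promoters for the shorter window and in 33.8% for the longer.

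Sparcl1 encodes hevin, a secreted matrix protein through which astrocytes act on synapses, and it was the second highest of the 10. It lies on chromosome 5, 104079111 to 104113733, minus strand. It had 258 TPM in replicate 2 and 294 TPM in replicate 1 (276 ± 25.9 TPM), all on a single annotated transcript. The log2 ratio of −0.29 turned to 0.26 with spike-in scaling. Some of its relatives differed between the libraries. Sparc, the matrix protein it is named after, had 619 TPM in replicate 2 and 269 TPM in replicate 1, and the follistatin-like gene Fstl1 had 142 TPM in replicate 2 and 50.9 TPM in replicate 1. Only these 2 of the 8 SPARC family genes passed 1.5-fold by TMM scaling, both upward, beside 10.7% of all genes tested. The ratios were 2.33 for Sparc and 3.005 for Fstl1. Both are known from fibroblasts, whose markers were higher in replicate 2 too. Sparcl1 was thus 0.416 times Sparc in replicate 2 and 1.09 times in replicate 1. The brain proteoglycan genes did not pass: Spock3 had 139 TPM in replicate 2 and 153 TPM in replicate 1, Spock1 had 105 TPM in replicate 2 and 120 TPM in replicate 1, and Spock2 had 77.9 TPM in replicate 2 and 73.0 TPM in replicate 1. Smoc1 had 9.00 TPM in replicate 2 and 7.97 TPM in replicate 1, and Smoc2 had 4.84 TPM in replicate 2 and 4.75 TPM in replicate 1.

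The order of the 10 levels was Fabp7, Sparcl1, Aldoc, Slc1a3, Glul, Gja1, Aldh1l1, Slc1a2, Hopx and Aqp4 by mean TPM. Fabp7 stood 6.496 times above Sparcl1, and the ranges of neighbours were apart for Aldoc over Slc1a3, Glul over Gja1, Aldh1l1 over Slc1a2 and Slc1a2 over Hopx. Neighbours whose ranges overlapped were Sparcl1 and Aldoc, Slc1a3 and Glul, Gja1 and Aldh1l1, and Hopx and Aqp4. The order of Slc1a3 and Glul and that of Gja1 and Aldh1l1 differed between the libraries. Gja1 also changed place with Slc1a2, at 88.9 against 26.8 TPM in replicate 2 and 29.5 against 32.2 TPM in replicate 1. The place of Glul rests on its short transcripts.

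Across the 10 genes, replicate 2 was slightly lower than replicate 1 on the scale of the median gene. Their median log2 ratio was −0.24, beside −0.01 over all genes tested, and 3 of 10 passed 1.5-fold in either direction, as did 19.2% of all genes tested. With spike-in scaling the median was 0.31, beside 0.54 over all genes tested, and 6 genes changed sign (Fabp7, Sparcl1, Aldoc, Glul, Aldh1l1 and Slc1a2). Of all genes, the middle 90% lay between −0.81 and 1.08, and 3 members lay outside it (Gja1 above, Hopx and Aqp4 below).

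**Figure D3:**
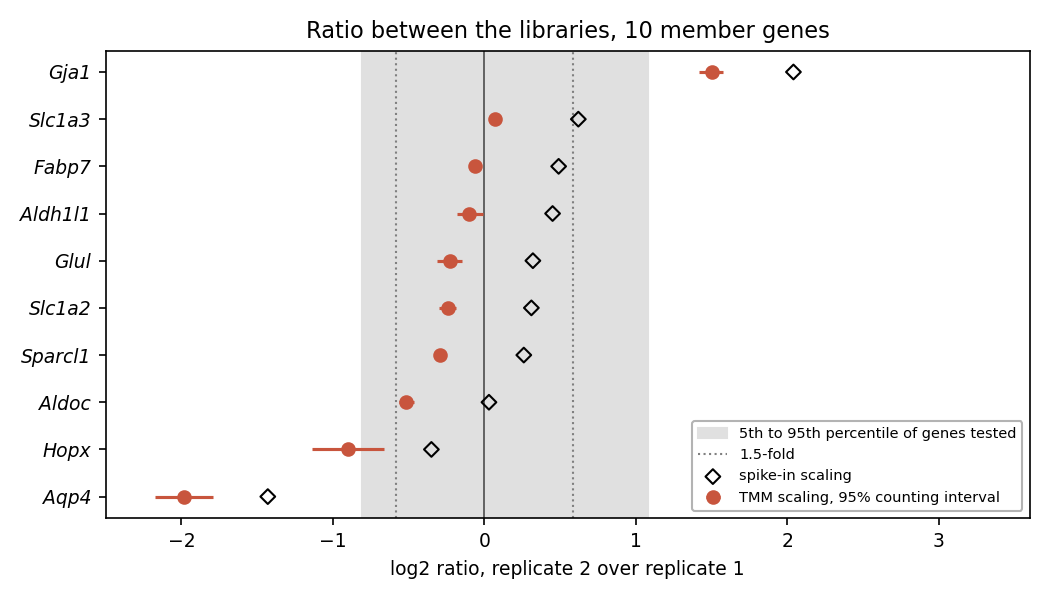
Log2 ratio of replicate 2 over replicate 1 for the 10 genes. Filled circles with 95% counting intervals use TMM scaling, open diamonds use spike-in scaling, dotted lines mark 1.5-fold, and the grey band spans the 5th to 95th percentile of 17623 genes (−0.81 to 1.08). Gja1 lies right of the band and Hopx at −0.90 and Aqp4 at −1.98 lie left of it, and each diamond is shifted right by 0.55.

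Other genes listed for radial glia were expressed as well. All 22 listed genes reached 1 TPM in both libraries, with a median of 46.9 TPM in replicate 2 and 44.3 TPM in replicate 1. The highest was Dbi, an acyl-CoA binding protein gene, with 1505 TPM in replicate 2 and 1499 TPM in replicate 1. Vim, the intermediate filament of radial fibres, had 501 TPM in replicate 2 and 378 TPM in replicate 1. Next came the membrane protein gene Gpm6b, with 215 TPM in replicate 2 and 220 TPM in replicate 1, and the cadherin gene Cdh2, with 169 TPM in replicate 2 and 125 TPM in replicate 1. The serine synthesis gene Phgdh had 134 TPM in replicate 2 and 139 TPM in replicate 1, and Ttyh1, a membrane protein gene, had 123 TPM in replicate 2 and 115 TPM in replicate 1. Only Dbi came near the level of Fabp7.

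Of these 22 genes, 3 were at least 1.5-fold higher and 1 was lower in replicate 2, with a median log2 ratio of 0.12. Of all genes tested, 10.7% were higher and 8.53% were lower by the same fold. With spike-in scaling the median was 0.67, beside 0.54 over all genes tested. By TMM scaling the higher genes were the endothelin receptor gene Ednrb (80.2 TPM in replicate 2 and 49.4 TPM in replicate 1), the nestin gene Nes (13.2 TPM in replicate 2 and 8.43 TPM in replicate 1) and Lix1 (16.9 TPM in replicate 2 and 8.21 TPM in replicate 1). The lower gene was Tnc, the matrix protein tenascin C, with 39.9 TPM in replicate 2 and 60.4 TPM in replicate 1. Its log2 ratio of −0.69 was −0.14 with spike-in scaling. Cell cycle genes had a median log2 ratio of 0.49 with 2 of 12 past 1.5-fold, both higher in replicate 2. With spike-in scaling their median was 1.04, beside 0.54 over all genes tested.

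Other astrocyte genes were expressed at lower levels, and more of them were lower than higher in replicate 2. Of 30 listed genes, 26 reached 1 TPM in both libraries, with a median of 21.6 TPM in replicate 2 and 21.4 TPM in replicate 1. The highest were Cst3, the cystatin C gene, with 487 TPM in replicate 2 and 440 TPM in replicate 1, and Apoe, the lipid carrier of astrocytes and microglia, with 451 TPM in replicate 2 and 243 TPM in replicate 1. Then followed the metallothionein gene Mt3 (163 TPM in replicate 2 and 229 TPM in replicate 1), the transcription regulator gene Id3 (160 TPM in replicate 2 and 124 TPM in replicate 1), Ndrg2 (125 TPM in replicate 2 and 143 TPM in replicate 1) and the proteoglycan gene Ncan (126 TPM in replicate 2 and 140 TPM in replicate 1). At the other end, 2 genes stayed under 1 TPM in both libraries: Gfap, the filament of mature astrocytes, with 0.13 TPM in replicate 2 and 0.70 TPM in replicate 1, and Gpr37l1, with 0.77 TPM in replicate 2 and 0.75 TPM in replicate 1.

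Of the 30, 8 were at least 1.5-fold lower in replicate 2, and 4 were higher, beside 8.53% lower and 10.7% higher of all genes tested. The lower set was Gfap (log2 ratio −2.41, on 5 counts in replicate 2 and 36 in replicate 1), the adhesion gene Hepacam (−0.95), the metallothionein genes Mt1 (−0.94), Mt2 (−0.92) and Mt3 (−0.59), the amino acid transporter gene Slc7a10 (−0.65), the sodium pump subunit gene Atp1b2 (−0.64) and the GABA transporter gene Slc6a11 (−0.62). All 8 kept a negative sign with spike-in scaling, but only Gfap, at −1.89, was then past 1.5-fold. Hepacam, which encodes a cell adhesion protein of astrocyte endfeet, had 7.91 TPM in replicate 2 and 14.3 TPM in replicate 1, a difference in the same direction as that of Aqp4. With spike-in scaling the median log2 ratio of the 30 was 0.31, beside 0.54 over all genes tested. By TMM scaling the higher set was Gjb6 (4.46), S100b (1.36), the hyaluronan receptor gene Cd44 (1.02) and Apoe (0.78). S100b, Cd44 and Apoe are also known from Schwann cells, fibroblasts or macrophages. Of 12 microglia and macrophage markers, 6 passed 1.5-fold upward in replicate 2, beside 10.7% of all genes tested. Their summed level was 236 TPM in replicate 2 and 142 TPM in replicate 1. Single markers ran from 1.24 to 43.5 TPM in replicate 2 and from 0.40 to 37.8 TPM in replicate 1. The part of these cells in the differences was not tested.

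**Figure D4:**
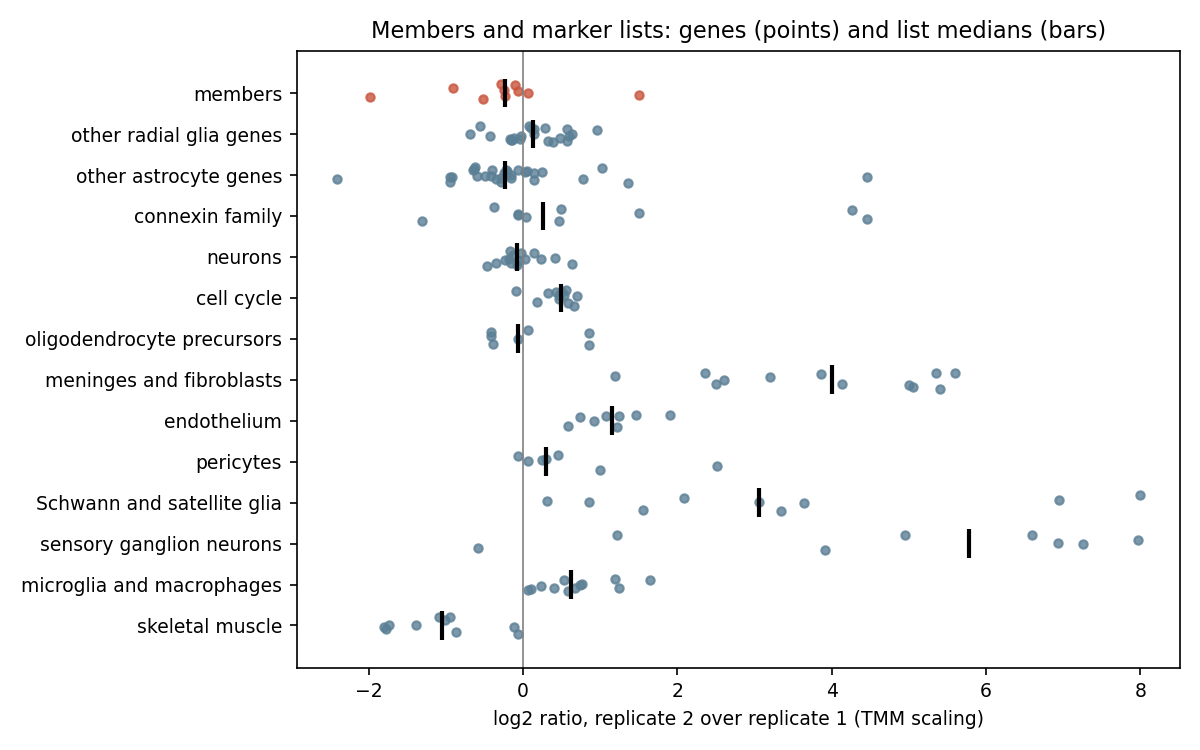
Log2 ratio of replicate 2 over replicate 1 for genes that averaged 10 or more counts in each list (points) and list medians (black bars), TMM scaling. The 10 members (median −0.24), other astrocyte genes (−0.23), neurons (−0.08) and oligodendrocyte precursors (−0.07) lie near 0, while meninges and fibroblasts (1.19 to 5.60), Schwann and satellite glia (median 3.06) and sensory ganglion neurons (median 5.77) lie far to the right.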

How the data were processed

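Total RNA-seq of whole neural tube was deposited for 2 libraries of 1 group. Alignment was to mm10 with GENCODE annotation M4, per the deposited notes. Which aligner and quantifier were run, and whether counting used strand, is not given in the sources used here, so reads of overlapping antisense genes cannot be told apart. The deposited expected counts are estimates of reads per gene or transcript, without normalisation by the authors. The deposited TPM values are scaled over all rows, spike-ins included, per the file headers. Percent columns, as deposited, hold each transcript's share of its gene, per the file headers. Each gene table held 69691 rows, and rows other than genes took 2.29% of the expected counts in replicate 2 and 3.31% in replicate 1 and were left out of library sizes.

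Names and coordinates (1-based, GRCm38) came from GENCODE M21: 42462 gene rows matched and 884 did not. Expected counts were rounded. Ratios used TMM library sizes (edgeR 4.0.16, R 4.3.3) and a prior count of 0.5, with exact Clopper-Pearson 95% intervals that cover counting error only. DESeq2 1.42.0 size factors, total counts and spike-ins were alternatives. Scaling was tested on simulated data. The files of the 2 libraries were not duplicates: over 25160 genes their chi-square per degree of freedom was 26.2. Promoters came from the RefSeq table (GRCm38.p6), which holds 8 of the 10 genes. Other steps used Python 3.11.15, pandas 2.3.3, NumPy 2.4.6, SciPy 1.17.1 and matplotlib 3.10.9.

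The members and the other 21 lists were chosen with earlier results of these data known. Besides the members, named genes were the 6 highest of the radial glia and astrocyte lists, those under 1 TPM or 1.5-fold apart, and family relatives at 1 TPM or more in both libraries. Gjd3, Slc1a7 and the single markers at 0 were otherwise named after their values were seen. Some genes that this rule names are not reported here, though list counts include them.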

Additional observations from a re-analysis of the deposited data

How the results depend on the processing

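The median level of the 10 genes was 111.8 TPM and lay between 102.5 TPM without replicate 2 and 121.2 TPM without replicate 1. Placing all reads of each gene on its transcript with most counts, chosen after seeing the data, lowered it to 59.42 TPM. The median log2 ratio of −0.24 became 0.31 with spike-in scaling and stayed between −0.24 and −0.19 under the other scalings and TPM estimates. The number of genes 1.5-fold apart was 3 under each scaling, but with spike-ins Slc1a3 took the place of Hopx. With a minimum mean count of 100 (12894 genes), the share of all genes 1.5-fold higher in replicate 2 was 6.86% and the share lower was 3.23%, against 10.7% and 8.53%. All 10 genes stayed at 1 TPM, and 8 kept a transcript with 80% or more, without either replicate. Depth limits Aqp4 and Hopx most, at 269 and 212 counts in replicate 2. No paired analysis was possible because the study has only 1 group. The 2 libraries come from separate litters, so their spread holds both biological and technical differences. They also differed in the sex-linked RNAs Xist and Ddx3y, in opposite directions, so sex cannot be told apart from litter.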
